A study of Mus musculus with 4 samples.

Results

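The S100 and annexin genes outside calprotectin were taken from the deposited expression table by name. The list holds S100a4, S100a6, S100a10, S100a11, S100a13, Anxa1, Anxa2, Anxa3 and Anxa5, and 8 of these 9 genes had a row among the 17104 genes of the table. Anxa1 was not analysed here. The 8 genes, 5 S100 genes and 3 annexins, were measured in 4 libraries of poly(A) RNA from acute myeloid leukemia (AML) cells, 2 labelled CD37 fl/fl and 2 labelled CD37 -/-, and the comparison asks how their RNA differs when leukemia cells lack CD37, a tetraspanin of the leukocyte surface.

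All 4 libraries came from sorted YFP+, c-kit+ bone marrow cells, the fraction enriched for leukemia stem cells (LSCs), of male C57 mice at week 6 of the secondary transplantation. Per the study's methods, male C57 mice were bought at 6 to 8 weeks of age, and the labels give no age at sampling. Per the study's methods, the donors of both groups carried floxed Cd37 (loxP sites around exons 4 and 5) and Rosa26-CreERT2, a tamoxifen-activated Cre expressed in most cell types, and their lineage-negative marrow was transduced with an MSCV retrovirus for MLL-AF9-IRES-YFP. Primary recipients received tamoxifen, which deletes the floxed exons, or corn oil, so that tamoxifen and the deletion cannot be told apart here. Recipients were irradiated and were also given supporting marrow, and it was not stated whether each library was 1 mouse or a pool, so p-values measure the spread between these libraries only.

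S100 proteins are small calcium-binding proteins that mostly act as dimers and bind other proteins when calcium rises. S100A10 is the exception, since it has lost calcium binding and stays in its binding form. Its dimer joins 2 molecules of annexin A2 into a complex at the plasma membrane that also docks plasminogen. Annexins bind phospholipid membranes in the presence of calcium. In the myeloid lineage S100A4, S100A6 and S100A11 are linked to cell movement and to the cytoskeleton, and annexin A1, the usual partner of S100A11, to the control of inflammation.

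The open reading frame of S100a10, the gene with the largest difference among the 8, is shown because its product is the light chain of the annexin A2 complex. It is that of the transcript numbered first in the GENCODE M21 annotation, 294 bases with the stop codon, and the capitals mark the start and the stop codon.
S100a10: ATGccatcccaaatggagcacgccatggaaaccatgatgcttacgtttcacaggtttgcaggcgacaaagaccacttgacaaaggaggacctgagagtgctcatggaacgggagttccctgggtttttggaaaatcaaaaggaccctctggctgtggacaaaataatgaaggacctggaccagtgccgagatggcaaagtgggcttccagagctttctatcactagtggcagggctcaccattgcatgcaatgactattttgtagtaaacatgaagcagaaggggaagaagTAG

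Promoters are shown for a pair of genes that were lower in both CD37 -/- libraries and for S100a11, which was not, and all lie on chromosome 3. Each window holds 250 bases before and 50 after the start of the gene, from RefSeq on GRCm38.p6. There 6 of the 8 genes had an entry, and S100a10 and Anxa3 had none. The capitals mark matches on either strand to the TATA box TATAAA, the GC box GGGCGG, the AP-1 site TGANTCA and the E-box CACGTG, which do not overlap each other here.
S100a6, chr3:90612644-90612943, plus strand: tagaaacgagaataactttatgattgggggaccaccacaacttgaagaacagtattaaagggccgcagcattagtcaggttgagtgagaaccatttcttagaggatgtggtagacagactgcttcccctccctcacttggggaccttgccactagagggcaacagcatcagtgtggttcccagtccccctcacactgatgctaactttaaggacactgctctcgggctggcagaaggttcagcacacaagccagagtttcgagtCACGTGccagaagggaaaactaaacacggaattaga
S100a13, chr3:90514185-90514484, plus strand: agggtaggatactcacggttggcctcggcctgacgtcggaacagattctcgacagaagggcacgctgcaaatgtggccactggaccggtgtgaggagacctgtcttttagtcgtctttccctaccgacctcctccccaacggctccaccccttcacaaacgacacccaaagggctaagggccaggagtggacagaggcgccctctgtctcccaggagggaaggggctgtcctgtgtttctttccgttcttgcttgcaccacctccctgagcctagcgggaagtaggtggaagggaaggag
S100a11, chr3:93520246-93520545, plus strand: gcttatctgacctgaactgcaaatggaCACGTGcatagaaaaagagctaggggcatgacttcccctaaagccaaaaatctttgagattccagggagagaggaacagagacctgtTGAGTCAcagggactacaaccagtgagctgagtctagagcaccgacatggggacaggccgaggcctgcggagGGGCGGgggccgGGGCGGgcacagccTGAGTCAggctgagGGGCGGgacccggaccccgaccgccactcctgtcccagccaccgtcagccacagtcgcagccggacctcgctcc
The S100a6 window held 1 E-box, the S100a13 window held none of the 4 motifs, and the S100a11 window held 3 GC boxes, 2 AP-1 sites and 1 E-box. Among the windows not shown, that of Anxa5, which overlapped between the genotypes, also held none of the 4 motifs. That of S100a4 held 1 TATA box, and that of Anxa2 held 1 TATA box, 3 GC boxes and 1 AP-1 site. Of all 32851 windows of this length, 13.6% held a TATA box, 35.7% a GC box, 7.81% an AP-1 site and 7.15% an E-box. These letters describe the windows and locate no bound factor.

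The deposited values are FPKM in which the kilobases are those of the whole gene span, introns included, as the steps of low values show: with spans, 98.8% to 99.0% of low values per library came out as whole reads within 0.05 of a read, against no more than 13.8% with exon length and 10% by chance. The implied depth was 15327357 to 22627491 reads per library. The libraries also differed in markers of other or more mature cells. CD37 fl/fl replicate 2 stood apart in mature neutrophil markers, whose summed FPKM was 18654 and 3687 in CD37 fl/fl LSCs, against 18658 and 10517 in CD37 -/- LSCs. CD37 fl/fl replicate 1 exceeded replicate 2 in 10 of 10 monocyte and macrophage markers, with sums of 656 and 361 in CD37 fl/fl LSCs, against 377 and 606 in CD37 -/- LSCs. Of 10 progenitor genes all were in the table, with Elane at 1750 to 1884 and Hoxa9 at 38.8 to 47.2 FPKM, while Kit, a gene with a long span, was at 0.170 to 0.434 and Cd34 at no more than 0.0411. Cd37 itself had an FPKM of 46.8 to 56.6 in CD37 fl/fl and 22.9 to 23.2 in CD37 -/- libraries. These values cover the whole gene, so RNA without the floxed exons and RNA of cells that kept them cannot be told apart.

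S100a10, S100a6 and S100a13 were lower in both CD37 -/- libraries than in either CD37 fl/fl library, at 29.6%, 42.4% and 44.0% of the CD37 fl/fl mean. S100a11, Anxa2 and Anxa5 overlapped between the genotypes, as did S100a4, and Anxa3 was somewhat higher in both CD37 -/- libraries. All 8 genes passed the filter of a mean FPKM of at least 1, which left 6761 genes to test on log2(FPKM + 1), where changes of weakly expressed genes come out too small. In limma, 0 of the 8 genes had a p under 0.05 once adjusted over the 6761 genes by the Benjamini-Hochberg method, as had 0.0% of all tested genes, and limma-voom on the recovered reads likewise called 0 genes. The targeted gene Cd37 did not pass either, with a log2 fold change of -1.12 and a Benjamini-Hochberg adjusted p of 0.104 (limma). At an unadjusted p under 0.05, 3 of the 8 genes were lower, 0 were higher and 5 did not pass. The background of that count was 7.96% of tested genes lower and 16.1% higher, 1626 genes (24.0%) in all. Groups that do not overlap were found for 23.7% of tested genes in the lower and for 38.2% in the higher direction. The median log2 fold change was -0.34 over the 8 genes and 0.11 over all tested genes. The median of the 8 turned with 1 library, to 0.032 without CD37 fl/fl replicate 1, and was -0.86 without CD37 fl/fl replicate 2.

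**Figure D1:**
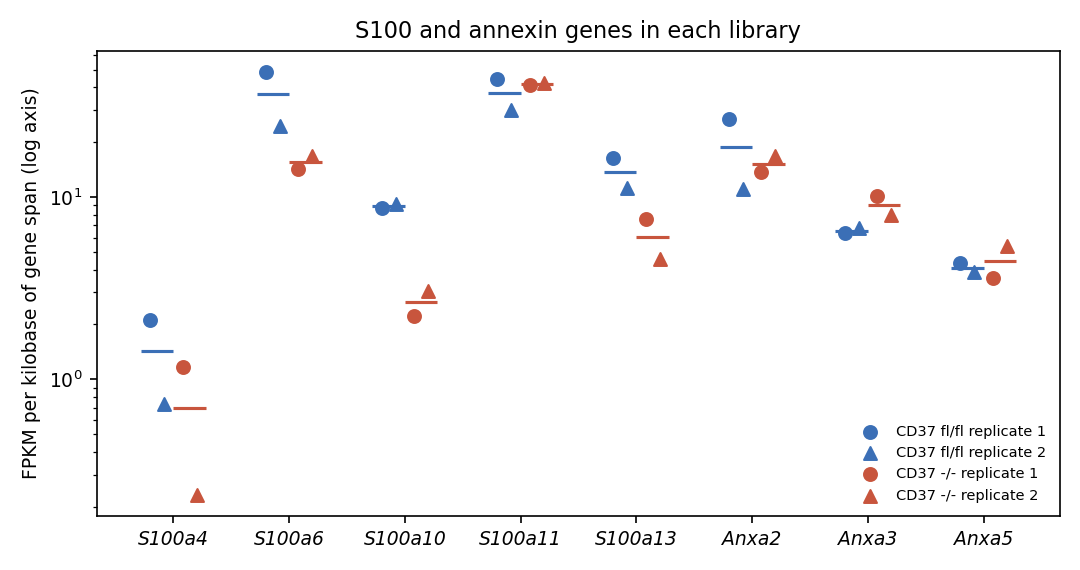
FPKM per kilobase of gene span (log axis) of the 8 S100 and annexin genes in each library, with circles for replicate 1 and triangles for replicate 2 of CD37 fl/fl (blue) and CD37 -/- (red) and bars at the group means. The groups do not overlap for S100a6, S100a10 and S100a13, which are lower in CD37 -/-, and for Anxa3, which is higher.

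S100a10 (ENSMUSG00000041959), whose reading frame is printed with the promoters, had an FPKM of 8.68 and 9.17 in CD37 fl/fl LSCs, against 2.23 and 3.05 in CD37 -/- LSCs. The means were 8.93 ± 0.345 and 2.64 ± 0.580 (SD, n = 2 each), a 3.38-fold lower level. The gap between the genotypes was many times the spread within either. The values rest on 1273, 1520, 379 and 661 reads in the same order. The log2 fold change was -1.45 (standard error 0.20, 95% interval -1.96 to -0.95), with an unadjusted p of 0.000439 and a Benjamini-Hochberg adjusted p of 0.0606 (limma). It was lower at an unadjusted p under 0.05 in all 16 alternative ways of processing, with log2 fold changes of -2.13 to -1.29 and adjusted p-values of 0.0421 to 0.252. The adjusted p was under 0.05 with division by the upper quartile and with robust estimation, where 0.68% and 1.3% of all tested genes passed. With any 1 library left out, the unadjusted p stayed under 0.05 and the adjusted p was 0.0993 to 0.20. In bulk RNA, fewer cells that express the gene and less RNA per cell cannot be told apart, here and for the genes below.

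S100a6 (ENSMUSG00000001025) encodes calcyclin, which binds the calcyclin-binding protein CACYBP and several annexins. Its FPKM was 48.7 and 24.7 in CD37 fl/fl LSCs, against 14.2 and 16.9 in CD37 -/- LSCs, with means of 36.7 ± 16.9 and 15.6 ± 1.86 (SD, n = 2 each). CD37 fl/fl replicate 1 had 1.97 times the level of replicate 2, while the CD37 -/- libraries lay close together. The log2 fold change was -1.11 (standard error 0.36, 95% interval -2.01 to -0.22), with an unadjusted p of 0.0230 and a Benjamini-Hochberg adjusted p of 0.157 (limma). Without CD37 fl/fl replicate 1 it was -0.64 with an unadjusted p of 0.0854, and without CD37 -/- replicate 1 the unadjusted p was 0.0787. Without CD37 fl/fl replicate 1, S100a10 was the 1 gene of the 8 that was lower at an unadjusted p under 0.05, where 5.41% of all tested genes were. The log2 fold change of S100a6 stayed negative in all 16 alternatives and had an unadjusted p under 0.05 in 12 (limma).

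S100a13 (ENSMUSG00000042312), whose product takes part in the release of FGF1 and IL-1α, proteins that leave cells without a signal peptide, had an FPKM of 16.4 and 11.2 in CD37 fl/fl LSCs, against 7.54 and 4.59 in CD37 -/- LSCs. The means were 13.8 ± 3.68 and 6.06 ± 2.09 (SD, n = 2 each). The lowest CD37 fl/fl library was above the highest CD37 -/- library. The log2 fold change was -1.07 (standard error 0.30, 95% interval -1.83 to -0.32), with an unadjusted p of 0.0133 and a Benjamini-Hochberg adjusted p of 0.137 (limma). The unadjusted p was 0.0711 without CD37 fl/fl replicate 1 (log2 fold change -0.82) and 0.0733 without CD37 -/- replicate 2 (-0.77), and under 0.05 in the other 14 alternatives. S100a1, its neighbour on the opposite strand, had an FPKM of 24.0 and 14.3 in CD37 fl/fl LSCs, against 13.4 and 12.5 in CD37 -/- LSCs (log2 fold change -0.49, unadjusted p of 0.153 from limma).

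S100a4 (ENSMUSG00000001020), known as metastasin and a binder of non-muscle myosin heavy chain, was the weakest of the 8, with an FPKM of 2.12 and 0.736 in CD37 fl/fl LSCs, against 1.16 and 0.233 in CD37 -/- LSCs. These are 74, 29, 47 and 12 reads. The genotypes overlapped, and within each genotype replicate 1 was higher. This corresponds to a log2 fold change of -0.51 (standard error 0.38, 95% interval -1.45 to 0.43), with an unadjusted p of 0.230 from limma. It was -0.087 without CD37 fl/fl replicate 1 and -0.10 without CD37 -/- replicate 2, but -0.93 without CD37 fl/fl replicate 2 and -0.92 without CD37 -/- replicate 1. A pseudocount of 0.1 gave -1.07 and limma-voom -1.29, with unadjusted p-values of 0.229 and 0.173. The annotation places 72.6% of its exon bases inside another gene of the same strand, Gm42674, so its reads may be split or dropped and its level is uncertain. Gm42674 had no row in the table, so reads given to it could not be seen.

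S100a11 (ENSMUSG00000027907), or calgizzarin, which binds annexin A1 and takes part in membrane repair, had an FPKM of 44.7 and 30.0 in CD37 fl/fl LSCs, against 41.4 and 42.3 in CD37 -/- LSCs. The CD37 -/- values lay between the CD37 fl/fl values. With a log2 fold change of 0.19 (standard error 0.29, 95% interval -0.52 to 0.89) and an unadjusted p of 0.541 from limma, the interval leaves out a difference as large as that of S100a10 and holds smaller ones. Of the 50-base stretches of its transcript, 41.1% are shared with Gm12854, so its reads may be split or dropped there and its level is uncertain. Gm12854 had no row in the table either.

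**Figure D2:**
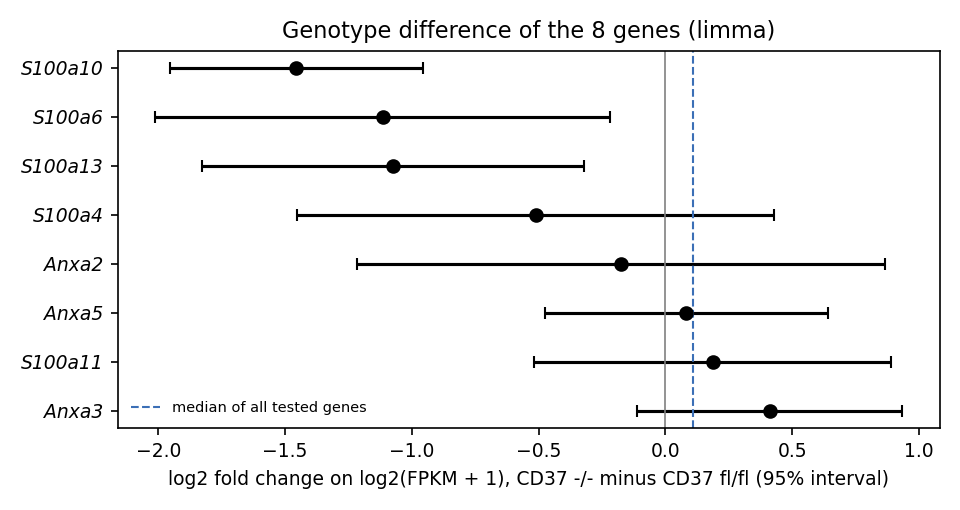
Difference of each gene between CD37 -/- and CD37 fl/fl on log2(FPKM + 1) from limma, with points for the estimate and bars for the 95% interval (2 libraries per genotype). The intervals of S100a10, S100a6 and S100a13 lie below 0, those of the other 5 genes hold 0, and the dashed line is the median of all tested genes at 0.11.

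Among the annexins, Anxa2 (ENSMUSG00000032231), the membrane-binding heavy chain of the complex with S100A10, had an FPKM of 26.8 and 11.04 in CD37 fl/fl LSCs, against 13.7 and 16.8 in CD37 -/- LSCs. The highest and the lowest value were both CD37 fl/fl libraries. The difference on the log2 scale was -0.18 (standard error 0.42, 95% interval -1.22 to 0.86), with an unadjusted p of 0.692 from limma. Its sign turned with 1 library, to 0.43 without CD37 fl/fl replicate 1 and to -0.78 without CD37 fl/fl replicate 2. Antisense or overlapping genes cover 30.4% of its exon bases, and whether counting used the strand is not given in the sources used here.

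Anxa3 (ENSMUSG00000029484), an annexin of neutrophil granule membranes, had an FPKM of 6.34 and 6.77 in CD37 fl/fl LSCs, against 10.2 and 8.02 in CD37 -/- LSCs. Both CD37 -/- values were the higher, with a mean of 139% of CD37 fl/fl. On the log2 scale the difference was 0.41 (standard error 0.21, 95% interval -0.11 to 0.93), with an unadjusted p of 0.102 from limma, and the unadjusted p was under 0.05 in 1 of 16 alternatives, TPM rescaling. Anxa5 (ENSMUSG00000027712), which binds phosphatidylserine and is the protein used to stain apoptotic cells, had an FPKM of 4.35 and 3.86 in CD37 fl/fl LSCs, against 3.58 and 5.36 in CD37 -/- LSCs. The genotypes overlapped, and the log2 fold change of 0.08 (standard error 0.23, 95% interval -0.48 to 0.64) had an unadjusted p of 0.728 from limma.

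Since S100A10 and annexin A2 form 1 complex, the ratio of their RNA was taken within each library, where a factor common to the library cancels. The ratio of S100a10 to Anxa2 FPKM was 0.325 and 0.831 in CD37 fl/fl LSCs, against 0.163 and 0.182 in CD37 -/- LSCs. Both CD37 -/- ratios were below both CD37 fl/fl ratios, with a difference in mean log2 ratio of -1.59, or 3.02-fold. The exact permutation test (two-sided) gave p = 0.333, the smallest p that 2 against 2 libraries allow. The difference was -2.27 without CD37 fl/fl replicate 1 and -0.92 without CD37 fl/fl replicate 2. A difference that goes with exon length does not cancel in this ratio, as S100a10 has 1212 exon bases and Anxa2 3731. Other tested protein-coding genes with S100 lengths had a median log2 fold change of -0.33, and those with annexin lengths 0.04. The part of exon length in the ratio was not tested.

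Levels were compared between genes per kilobase of exon, from the recovered reads. S100a11 was the highest, at 450 ± 74.2 FPKM per kilobase of exon (mean and SD of 4 libraries), followed by S100a6 (216 ± 130), Anxa2 (175 ± 70.3), S100a13 (141 ± 72.1), Anxa3 (113 ± 24.9), Anxa5 (65.1 ± 11.9), S100a10 (45.7 ± 28.8) and S100a4 (4.14 ± 3.12). S100a11 was above S100a6, Anxa3 above Anxa5 and S100a10 above S100a4 in 4 of 4 libraries. The other neighbours in this order changed places in at least 1 library, so their order is uncertain. The SD over 4 libraries also holds the difference between the genotypes. Between the genotype means, S100a6 moved from rank 2 to rank 4 and S100a13 from rank 3 to rank 5, while Anxa2 moved from rank 4 to rank 2 and Anxa3 from rank 5 to rank 3. Some of these ranks were nearly tied, with S100a13 at 195 and Anxa2 at 193 in CD37 fl/fl libraries. In CD37 -/- libraries Anxa3 was at 131 and S100a6 at 129. The mean of Anxa2 was itself lower in CD37 -/- libraries, at 156, although its rank was higher. S100a10 moved from rank 6 to rank 7, with means of 70.5 and 20.9 FPKM per kilobase of exon in CD37 fl/fl and CD37 -/- libraries, and Anxa5 from rank 7 to rank 6.

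The 5 S100 genes are short and the 3 annexins long, with 511 to 1367 and 1777 to 3731 exon bases, and the fold change moved with exon length across the table. Of the 414 other tested protein-coding genes within the S100 lengths, 21.3% were lower and 3.86% higher in CD37 -/- libraries at an unadjusted p under 0.05, and 48.8% were lower without overlap, with a median log2 fold change of -0.33 and a 5th to 95th percentile of -1.41 to 0.86. In the 2039 genes within the annexin lengths, 6.62% were lower, 12.8% higher and 26.8% lower without overlap, and the median was 0.04. Of the genes with S100 lengths, 4.59% had a log2 fold change at or below that of S100a10, 8.70% at or below that of S100a6 and 9.42% at or below that of S100a13. For S100a11 it was 81.6%. The part of exon length in these differences was not tested.

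**Figure D3:**
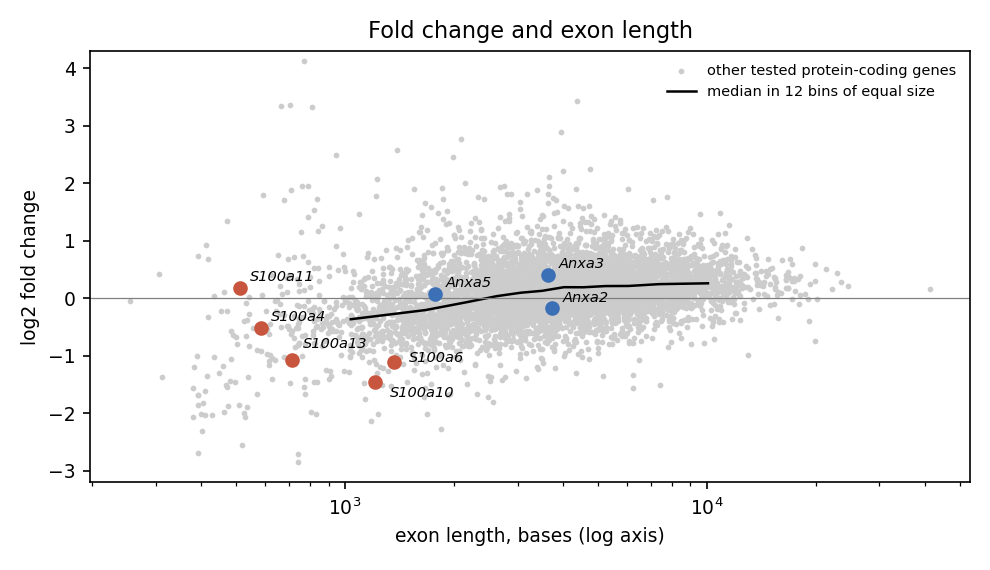
Log2 fold change between CD37 -/- and CD37 fl/fl against exon length (log axis) for all tested protein-coding genes (grey), with the S100 genes in red, the annexins in blue and a line for the median in 12 bins of equal size. The median falls below 0 for short genes, where S100a10, S100a6 and S100a13 lie below the line and S100a11 above it.

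The profiles of the genes over the 4 libraries, each centred on its own mean, differed. The closest pair was S100a11 and Anxa5, with a root mean square difference of 0.22 on the log2 scale, and the farthest was S100a10 and Anxa3 (0.96). S100a6 was nearer to S100a13 (0.34) than to S100a10 (0.40). For 10 of 10 mature neutrophil markers, the medians of the centred log2 values were 0.50 and -1.52 in CD37 fl/fl LSCs, against 0.61 and 0.53 in CD37 -/- LSCs. Both CD37 -/- medians were thus the higher, though close to that of CD37 fl/fl replicate 1. For 7 of 10 monocyte and macrophage markers the genotypes overlapped, with 0.53 and -0.45 against -0.61 and 0.53. The log2 fold change was above 0 for 10 of 10 neutrophil markers, 1 of them at an unadjusted p under 0.05 (limma), beside 16.1% of all tested genes. Dendritic cell markers summed to 206 FPKM in CD37 fl/fl replicate 1 and to no more than 37.5 in the other 3 libraries, most of it Cd74 and H2-Aa with Siglech at no more than 0.0740 and Flt3 at no more than 0.0256, so that the library with the highest S100a6, S100a13, S100a4, S100a11 and Anxa2 also had the most of them. Erythroid markers separated the genotypes, with sums of 60.9 and 5.12 FPKM in CD37 fl/fl LSCs, against 576 and 143 in CD37 -/- LSCs. Of the 10 progenitor genes, 3 were lower in both CD37 -/- libraries and 2 were higher in both. The 2 higher genes, Kit and Meis1, were below the filter, so that 0 of the 6 tested genes were higher in both. Of all tested genes, 23.7% were lower and 38.2% higher in both CD37 -/- libraries. The 3 lower progenitor genes were Mpo, Prtn3 and Ctsg. Mpo had an FPKM of 80.3 and 51.6 in CD37 fl/fl LSCs, against 34.4 and 20.8 in CD37 -/- LSCs. The log2 fold changes were -1.24 for Mpo (unadjusted p of 0.0154 from limma), -0.67 for Prtn3 (0.0566) and -1.01 for Ctsg (0.135). The part of these cells and of the progenitor genes in the S100 and annexin values was not tested. Markers of T and NK cells summed to no more than 0.0782 FPKM and of B cells to no more than 0.475.

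**Figure D4:**
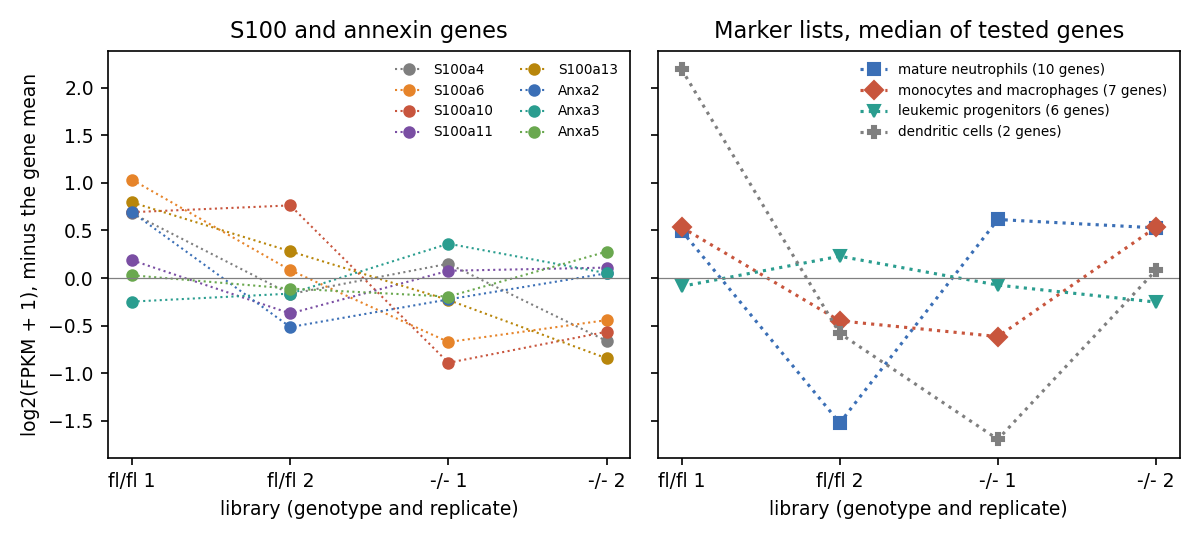
Log2(FPKM + 1) minus the gene's mean over the 4 libraries, for the 8 genes (left) and as the median over tested genes of 4 marker lists (right), by library. S100a10 is high in both CD37 fl/fl libraries. The neutrophil, monocyte and dendritic medians separate CD37 fl/fl replicate 1 from replicate 2. The progenitor median is -0.088 and 0.23 in CD37 fl/fl, against -0.074 and -0.25 in CD37 -/- libraries. The part of these lists in the S100a10 values was not tested.

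Over the 4 libraries the genes most alike to S100a11, among 2677 candidates with a mean FPKM of at least 5, were Capn1, Mob3a and Galns, with root mean square differences of 0.014, 0.021 and 0.028 on the log2 scale. Those most alike to S100a6 were Crip1 (0.077), Fkbpl (0.16) and Scand1 (0.17). Crip1, a small LIM-domain protein, had an FPKM of 24.4 and 13.3 in CD37 fl/fl LSCs, against 7.48 and 7.82 in CD37 -/- LSCs.

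Of the other S100 genes, 6 of 11 listed were in the table and 3 were tested, and 0 passed at an unadjusted p under 0.05 (limma). Both subunits of calprotectin differed mainly between the CD37 fl/fl libraries, with S100a8 at an FPKM of 11446 and 2263 in CD37 fl/fl LSCs, against 11952 and 5552 in CD37 -/- LSCs. Of the other annexins, 6 of 8 were in the table and 4 were tested, and 0 passed, with a median log2 fold change of 0.04. The list of partners and receptors of S100 proteins and annexins held 25 symbols, with Hltf also under its older name Smarca3. Of these symbols, 19 were in the table and 7 were tested. At an unadjusted p under 0.05 (limma), 1 was higher and 0 were lower, with a median log2 fold change of 0.38. That is 1 of 7, beside the 16.1% of all tested genes that were higher. The gene was Myh9, the non-muscle myosin heavy chain that S100A4 binds, with an FPKM of 5.60 and 5.62 in CD37 fl/fl LSCs, against 10.5 and 15.1 in CD37 -/- LSCs (log2 fold change 1.04, standard error 0.24, Benjamini-Hochberg adjusted p of 0.110 from limma). Cacybp, the partner of S100A6, had a log2 fold change of 0.38, and Plaur and Bsg, surface receptors, of 0.44 and -0.41, each with an unadjusted p over 0.05 from limma. Partner genes with long introns were below the filter, among them Sgk1 with 275 and 440 reads in CD37 fl/fl LSCs, against 719 and 1378 reads in CD37 -/- LSCs.

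**Figure D5:**
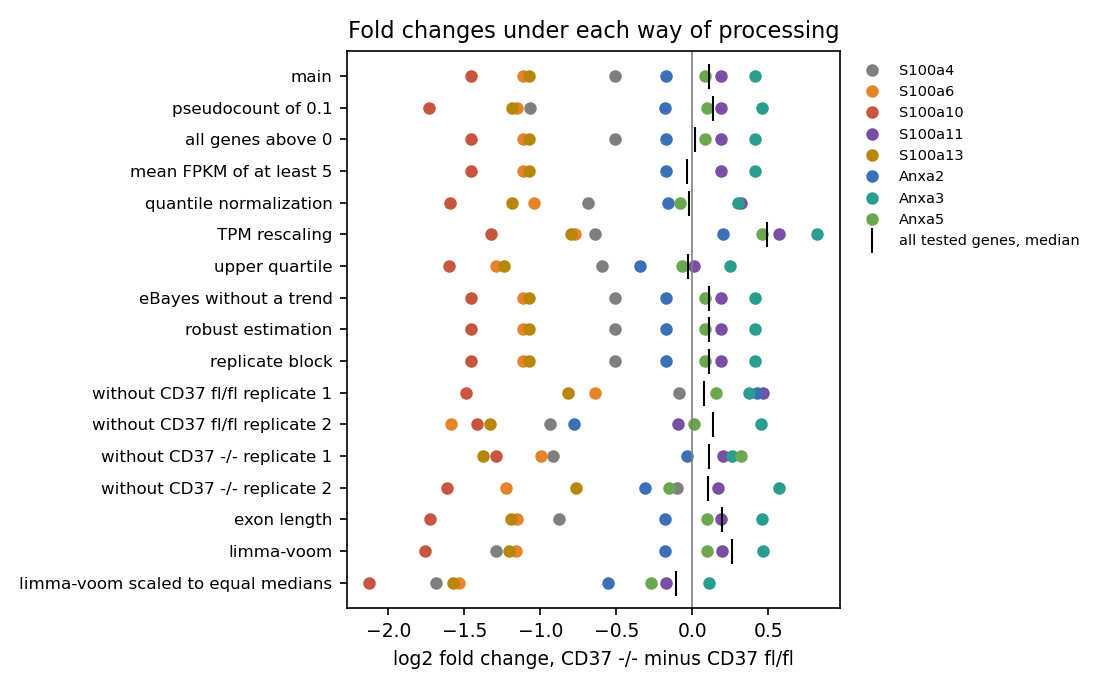
Log2 fold change of each gene between CD37 -/- and CD37 fl/fl under the reported processing and its 16 alternatives (1 row each), with a vertical tick for the median of all tested genes. S100a10, S100a6 and S100a13 stay below 0 in each row, and Anxa2, Anxa5 and S100a11 take both signs.

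Scaling between libraries moved the whole table. Over all tested genes, the median of the log2 fold changes went from 0.11 to -0.02 with quantile normalization, to -0.03 with the upper quartile and to 0.49 with TPM rescaling, and 66.9% of the genes at an unadjusted p under 0.05 were higher, against 47.5%, 44.0% and 91.4%. S100a10, S100a6 and S100a13 were below the median of all tested genes under each of these scalings. Anxa2 turned from -0.18 to 0.20 with TPM rescaling, and Anxa5 from 0.08 to -0.085 with quantile normalization, both far inside their intervals.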

How the data were processed

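Sorted YFP+, c-kit+ LSCs of 2 CD37 fl/fl and 2 CD37 -/- replicates were sequenced as poly(A) libraries. The authors deposited FPKM values, 1 column per library, without a log; the submitters' processing notes name fastp 0.20.1, STAR 2.7.7a, featureCounts 2.0.0, edgeR and mm39, with no role or order, and the annotation is not given in the sources used here. Names, spans and exon lengths came from GENCODE M21 on GRCm38, which matched 17045 of 17104 identifiers (99.7%). Reads were recovered from FPKM and gene span and were used for depth, for levels per kilobase of exon and for alternatives only. Values as log2(FPKM + 1) of the 6761 genes whose mean FPKM reached 1 were fitted with lmFit and eBayes with a trend (limma 3.58.1, statmod 1.5.0, R 4.3.3), without a block, with Benjamini-Hochberg adjustment. The code was tested on simulated data. Tables were built in Python 3.11.15 (numpy 2.4.6, pandas 2.3.3, scipy 1.17.1), figures with matplotlib 3.10.9.

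The genes described, the marker and partner lists and the tests were chosen with earlier results of these data known. Named were all listed genes, members of a list where it is reported, and the 3 genes most alike to each of the 2 genes with the highest mean FPKM, by the root mean square difference of centred log2 values, without predicted genes. Same-numbered replicates were not stated to be paired, and their deviations correlated at -0.04.

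Alternatives changed the pseudocount (0.1), the filter (all genes above 0, or a mean FPKM from 5), the scaling (quantile normalization, upper quartile, TPM rescaling), eBayes (no trend, robust estimation), the block (replicate number), the libraries (each left out once) or the length (exons). Another was limma-voom on recovered reads, for genes averaging 10 reads or more, and its scaling to equal medians was added after seeing the data.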

Additional observations from a re-analysis of the deposited data

How the results depend on the processing

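The unadjusted call changed under at least 1 alternative for S100a6, S100a13, S100a4 and Anxa3, and the adjusted call for S100a10. Counted by the Benjamini-Hochberg adjusted p of limma, 1 gene, S100a10, passed with the upper quartile (adjusted p 0.0472) and 1, again S100a10, with robust estimation (0.0421), against 0 as reported. Tested genes that passed numbered 46 and 88 there, 73 with the block, 45 when the mean FPKM had to reach 5 and 16 with exon length. The number at an unadjusted p under 0.05 was 3 as reported and 1 to 3 when a library was left out, with 1 (S100a10) without CD37 fl/fl replicate 1. The median log2 fold change of the genes was -0.34, -0.86 to 0.032 when a library was left out, its sign turning without CD37 fl/fl replicate 1, and -1.04 with limma-voom scaled to equal medians, an alternative chosen after seeing the data.

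Of the partner and receptor genes, 1 passed at an unadjusted p under 0.05 as reported, 2 with all genes above 0 (Sgk1 added), 2 with TPM rescaling (Plaur added), 4 with exon length and 4 with limma-voom (Hltf, Sgk1 and Plau added in both), 3 with limma-voom scaled to equal medians (Myh9 and Sgk1 higher, Bsg lower at -0.78) and 1 to 2 when a library was left out. Of all tested genes, 17.2%, 33.4%, 25.0%, 25.3% and 24.3% passed in either direction under these 5 settings, in that order. Exon length and limma-voom test more genes, since long introns no longer lower the level, and all genes above 0 sets no higher floor. More partner genes than the 7 of the reported fit were tested under these settings, so their counts are not out of 7.

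Of 126 values of single genes under the alternatives, 8 took the other sign. S100a11 was -0.094 without CD37 fl/fl replicate 2 (up to 0.46 when another library was left out) and -0.17 with limma-voom scaled to equal medians. Anxa2 was 0.20 with TPM rescaling and 0.43 without CD37 fl/fl replicate 1 (down to -0.78 without replicate 2). Anxa5 was -0.085 with quantile normalization, -0.066 with the upper quartile, -0.15 without CD37 -/- replicate 2 (up to 0.32 when another was left out) and -0.27 with limma-voom scaled to equal medians. The cause was not tested. With the replicate number as a block, 4 genes instead of 3 passed at an unadjusted p under 0.05, S100a4 (p 0.0263, limma) being added, and S100a10 had an adjusted p of 0.0530. A mean FPKM of at least 5 gave no value for S100a4 and Anxa5. With 2 libraries per genotype, and 12 to 74 reads for S100a4, differences well within the intervals were not detectable.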
